A study of Mus musculus with 32 samples.

Results

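The mitochondrial genome gave 37 of the 53801 gene rows measured in mouse quadriceps muscle, taken as every row whose name starts with mt- on the reference MT: 2 ribosomal RNA (rRNA) genes, 13 protein-coding genes and 22 transfer RNA (tRNA) genes. RNA sequencing was done on 32 mice, 4 in each of 8 groups: wild type (WT) or Col6a2-/- mice, female or male, at 5 or 25 weeks of age. Col6a2 encodes a chain of collagen VI, which forms filaments in the matrix around muscle fibres. All mice, controls included, came from heterozygous breeders of the Col6a2tm1(KOMP)Vlcg line, which was made on C57BL/6N and crossed back to C57BL/6J for 5 generations. Each library is 1 mouse per the labels, and the RNA came from cryosections of whole muscle, so fewer cells of a type and less RNA per cell cannot be told apart.

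Mitochondrial DNA is a compact circle, and its strands are copied into long transcripts that run through many genes. The tRNA genes lie between most rRNA and protein-coding genes, and cutting at the tRNAs frees the rRNAs and messenger RNAs (mRNAs). The mRNAs encode subunits of respiratory complexes I, III and IV and of the ATP synthase (complex V), the rRNAs form the mitochondrial ribosome, and all other proteins of the organelle are made from nuclear genes.

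Levels are in TPM, a unit scaled for gene length and library size. Comparison between genes is limited for rows that share reads, as described below, and for the tRNA rows, which are only 59 to 75 bases long. Differences are given on the log2(TPM + 1) scale, from limma models fitted to the 12817 genes that reached 1 TPM in 4 or more libraries. A gene is said to rise or fall when its Benjamini-Hochberg adjusted p over all these genes is under 0.05. Of the 37 mitochondrial rows, 36 passed this filter. The exception was mt-Ts2, a serine tRNA, which reached at most 1.39 TPM in any library.

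The targeted gene, Col6a2, was at 6.60 to 51.2 TPM in the 16 WT libraries and at 0 to 0.171 TPM in the 16 Col6a2-/- libraries, so each library matched its genotype label. Depth, as coverage divided by FPKM, ranged from 6.78 to 13.7 between libraries and was 10.5 ± 2.14 (SD, n = 16) at 5 weeks and 8.21 ± 1.33 (SD, n = 16) at 25 weeks. Depth thus moved with age, and its part in the age results was not tested. The summed TPM of a 10-gene muscle fibre list lay between 27772 and 47244, so the defining markers of the labelled tissue were present in every library. One library, WT 25 weeks male replicate 4, stood apart, with 32.01% of all TPM from the mitochondrial genome against 44.6% to 46.9% in the other males of its group. In it the Rn7s rows (7SL RNA) held 28.7% of all TPM, against 19.4% to 25.4% in those males. Over all 32 libraries these rows held 19.4% to 28.7%, so TPM values of the members also depend on them. Member calls on TPM that change without WT 25 weeks male replicate 4 are given with each comparison. Because low values of the members themselves singled it out, leaving it out tends to raise old WT and male means in advance. Such calls are therefore no support for a difference. The row mt-Tg also split the libraries into a high and a low set that cross the groups, and mt-Tr ordered them alike, as described with the tRNAs.

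The sequences shown first are those of the 4 tRNA genes on which the results turn, because they either differed between genotypes or split the libraries. They were read from the GENCODE M21 transcripts (build GRCm38), and the capitals mark the anticodon, which pairs with the codon on the mRNA. mt-Tv (valine tRNA) lies at MT:1025-1093, directly between the 12S rRNA gene mt-Rnr1 and the 16S rRNA gene mt-Rnr2 with no base between them. mt-Td (aspartate tRNA) lies at MT:6942-7011 ahead of mt-Co2. mt-Tg (glycine tRNA) lies at MT:9391-9458, with no base between it and mt-Co3 before it or mt-Nd3 after it. mt-Tr (arginine tRNA) lies at MT:9808-9875, and it holds a run of 8 A. All 4 are on the plus strand.
mt-Tv: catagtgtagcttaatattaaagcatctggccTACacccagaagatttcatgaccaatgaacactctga
mt-Td: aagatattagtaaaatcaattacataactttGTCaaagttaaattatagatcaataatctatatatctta
mt-Tg: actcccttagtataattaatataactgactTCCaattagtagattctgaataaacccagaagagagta
mt-Tr: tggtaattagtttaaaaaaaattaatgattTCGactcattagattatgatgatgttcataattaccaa

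Together the 37 rows made up a large share of each library, from 31.9% to 46.9% of all TPM. Among young mice the share was 37.7% ± 3.44 in WT and 38.3% ± 3.41 in Col6a2-/-, and among old mice 39.3% ± 5.53 and 40.1% ± 3.60 (SD, 8 libraries each). These groups overlapped. The rRNAs held 81.0% to 86.3% of the mitochondrial TPM, and the tRNA rows held 0.147% to 0.302%. A sum over chosen genes is given here without a test.

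The rRNA genes differed from each other in how they related to age. mt-Rnr1, the RNA of the small ribosomal subunit, lay between 34907 and 47825 TPM in WT mice at 5 weeks (median 41859) and between 43970 and 66054 at 25 weeks (median 52209). In Col6a2-/- mice the lowest, median and highest values were 37114, 45521 and 51715 TPM at 5 weeks and 44666, 55549 and 60352 at 25 weeks. In both genotypes the ranges overlapped, but all 8 older libraries were above the mean of the young ones of the same sex. mt-Rnr1 rose with age by a log2 difference of 0.36 (SE 0.0823, limma adjusted p = 0.00222) in WT and 0.30 (SE 0.0823, limma adjusted p = 0.00558) in Col6a2-/- mice. These calls were lost under quantile normalization and without the filter on low values, with the adjusted p reaching 0.256 in WT and 0.436 in Col6a2-/- mice.

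mt-Rnr2, the RNA of the large ribosomal subunit and the most abundant member, was not called in either genotype. Its mean was 279739 TPM in young and 271008 in old WT mice, and 284219 and 276725 in Col6a2-/- mice. Its log2 differences between ages were -0.05 (limma adjusted p = 0.672) and -0.04 (limma adjusted p = 0.715).

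The ratio of the rRNAs therefore separated the ages. The ratio of mt-Rnr2 to mt-Rnr1 lay between 6.05 and 6.96 in all 16 libraries at 5 weeks and between 4.52 and 5.31 in all 16 at 25 weeks, with no overlap. Within each age the genotypes overlapped: the ratio was 6.67 ± 0.224 in young WT, 6.38 ± 0.309 in young Col6a2-/-, 5.00 ± 0.235 in old WT and 5.03 ± 0.113 in old Col6a2-/- mice (SD, n = 8 each). The ratio of summed rRNA to summed mRNA also had no overlap, at 5.64 to 6.37 in the young and 4.33 to 5.55 in the old libraries. By contrast, the ratio of mt-Rnr1 alone to the mRNAs overlapped, at 0.730 to 0.873 and 0.777 to 0.902.

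**Figure D1:**
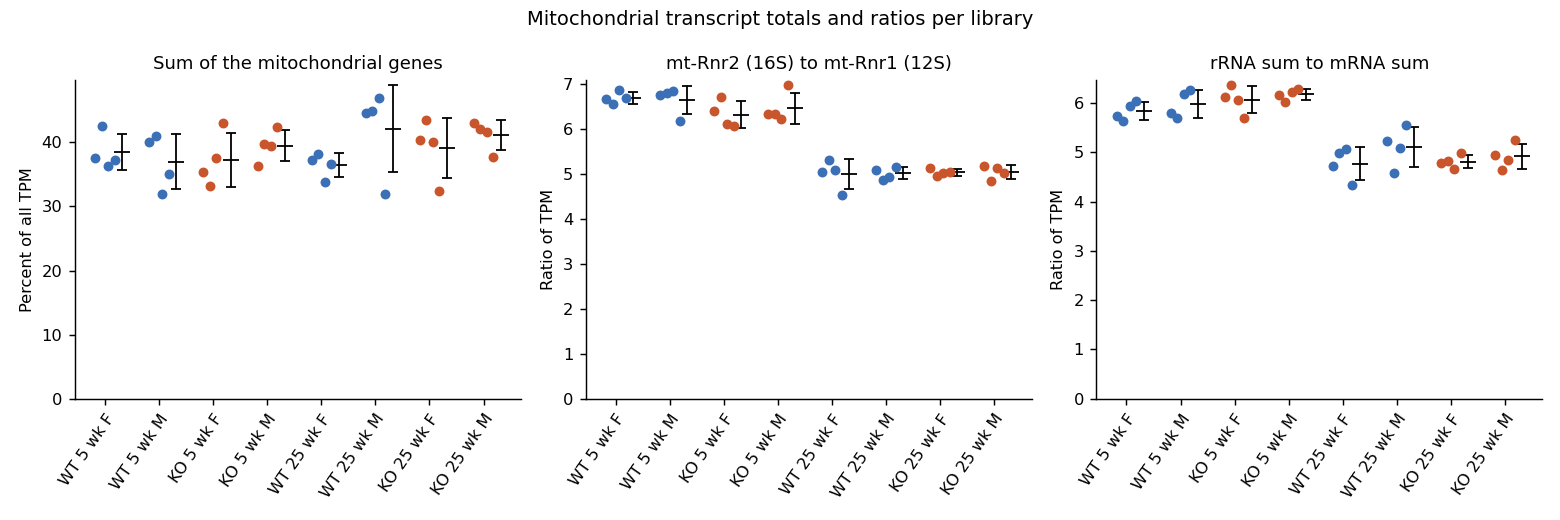
The vertical axes show, from left to right, the summed mitochondrial TPM as a percent of all TPM, the ratio of mt-Rnr2 to mt-Rnr1 and the ratio of summed rRNA to summed mRNA, for each library (points) in the 8 groups (KO, Col6a2-/-; wk, weeks; F, female; M, male), with bars for mean ± SD of 4 libraries. The left panel overlaps between all groups, and in the other panels every library at 5 weeks is above every library at 25 weeks.

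The 13 mRNAs kept a steep order of levels. mt-Co1 and mt-Co3, catalytic-core subunits of complex IV, came first with means of 18418 ± 2736 and 11566 ± 1814 TPM (SD, n = 32). mt-Co2, the other core subunit, and mt-Nd1, of complex I, did not separate, with means of 6032 TPM each and mt-Co2 the higher in 15 of 32 libraries. mt-Atp8 of the ATP synthase and mt-Cytb, the subunit of complex III, were also close, at 4740 ± 899 and 4657 ± 714 TPM, and mt-Atp8 was the higher in 19 libraries.

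The lower part of the order held mostly complex I subunits. mt-Nd3 had 2599 TPM, mt-Nd2 2116, mt-Atp6 of the ATP synthase 1852, mt-Nd4 1251, mt-Nd5 911 and mt-Nd4l 439. From mt-Atp6 down, each gene was above the next in all 32 libraries. mt-Nd3 was above mt-Nd2 in 31 and mt-Nd2 above mt-Atp6 in 27. mt-Nd6, the sole mRNA on the minus strand, was lowest with 152 ± 29.0 TPM (SD, n = 32). Complex IV held 55.5% to 61.9% of the mRNA TPM, complex I 19.7% to 25.3%, complex V 9.86% to 11.5% and complex III 6.80% to 8.99%.

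These levels carry a limit, because copies of part of the mitochondrial genome lie in nuclear DNA. In GENCODE M21, 7 pseudogene rows on the minus strand of chromosome 1, between 24611535 and 24616197 (GRCm38), match mt-Co1, mt-Co2, mt-Atp6, mt-Co3, mt-Nd3, mt-Nd4l and mt-Nd4, and 5 of them are identical over their whole length. Together they were listed with 3.04% to 5.40% of all TPM, which the sums, shares and ratios given for the members leave out. With the copies added, the mitochondrial total was 34.9% to 52.1% of all TPM. Gm28437, the copy of mt-Co3, had 99.3% to 100.5% of the TPM of mt-Co3, and Gm28661, the copy of mt-Co2, had 99.6% to 100.7% of its gene. Gm10222, the copy of mt-Nd4l, was at 100.3% to 101.4%, and Gm28438, the copy of mt-Nd3, at 100.4% to 101.8%. Gm10925, the copy of mt-Atp6, was listed at 293% to 322% of mt-Atp6. Gm29216, the copy of mt-Co1, with 6 mismatches over 492 bases, was at 74.5% to 78.8%, and Gm28439, the copy of mt-Nd4, at 49.6% to 54.3%. Reads without a differing base cannot be told apart between a gene and its copy. This holds for every read within the 5 identical copies and for those that miss the mismatches of Gm29216 and Gm28438. The levels of these 7 mRNAs and their places in the order are therefore uncertain. The same limit holds for the shares of the complexes, the rRNA share of the mitochondrial total and the ratio of rRNA to mRNA. The same search for shared runs of 50 bases found 7 further nuclear rows on other chromosomes, less like their genes and matching mt-Co1, mt-Co2, mt-Nd2, mt-Nd5 and mt-Rnr2. The highest of these, Gm13340 on chromosome 2, differs from mt-Co1 at 37 of 1545 aligned bases and was listed at 831 to 1406 TPM, so reads of these members may be divided too. The rows of mt-Atp8 and mt-Atp6 also overlap each other on the map.

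**Figure D2:**
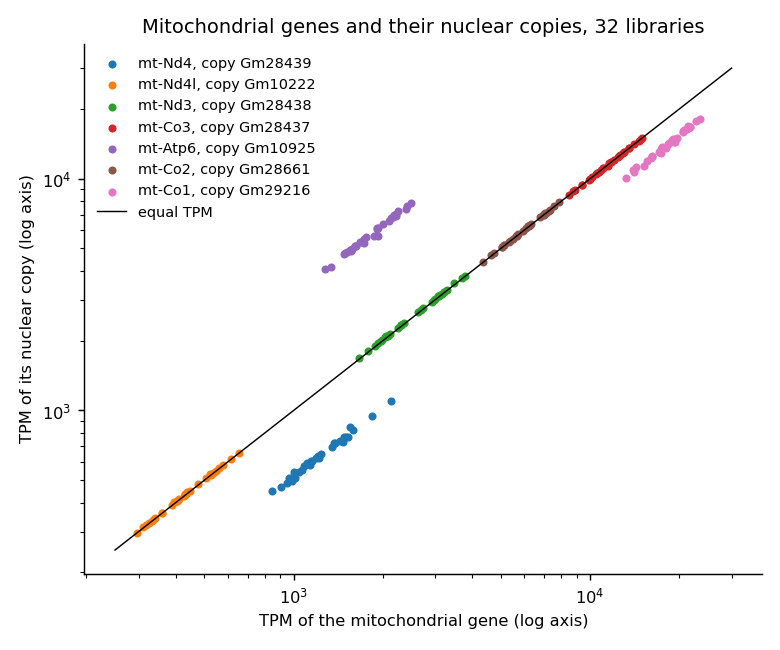
Each point is 1 library, with the TPM of a mitochondrial gene on the horizontal axis and the TPM of its copy on chromosome 1 on the vertical axis (both log axes). Points of mt-Co2, mt-Co3, mt-Nd3 and mt-Nd4l lie on the line of equal TPM, those of mt-Atp6 lie above it, and those of mt-Co1 and mt-Nd4 lie below it.

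The copy of mt-Nd3 is shown beside the gene because it differs at a single base of 345, close to the end of mt-Tg. The capital marks that base, T3C, with the base of mt-Nd3 first, the position counted from 1 at the start of the mt-Nd3 row, and the base of the copy last. The window of mt-Nd3 is MT:9459-9486 on the plus strand, and the copy is Gm28438.
mt-Nd3: atTaacctgtacactgttatcttcatta
Gm28438: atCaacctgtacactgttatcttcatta

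Age was compared within each genotype. Of the 36 members tested, 15 rose and 0 fell from 5 to 25 weeks in WT mice, where 4.47% of all genes tested rose and 19.8% were called in either direction. In Col6a2-/- mice 17 rose and 0 fell, where 5.41% of all genes rose and 34.2% were called in either direction. The median log2 difference was 0.30 over the members and -0.08 over all genes in WT, and 0.31 and -0.14 in Col6a2-/- mice. Without the library WT 25 weeks male replicate 4, 23 members passed as higher at 25 weeks in WT mice, where 4.62% of all genes rose and 20.2% were called in either direction. The 8 gained members were mt-Co1, mt-Co3, mt-Atp6, mt-Atp8, mt-Cytb, mt-Nd4, mt-Nd5 and mt-Ti. This library was picked by its low mitochondrial share, so the gained calls are no independent support for a rise. In the same fit mt-Tl1 and mt-Tw also passed in Col6a2-/- mice, where 5.51% of all genes rose and 34.2% were called, with limma adjusted p of 0.0254 and 0.0212, their differences being unaltered and their SE smaller. Of the members, 12 rose in both genotypes, which is 80.0% of the 15 and 70.6% of the 17. Over all genes tested, 391 rose in both, which is 68.2% of the 573 that rose in WT and 56.3% of the 694 that rose in Col6a2-/- mice, and the difference between these shares was not tested.

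Among complex I mRNAs, mt-Nd1, mt-Nd2 and mt-Nd3 rose in both genotypes. mt-Nd3 had a lowest, median and highest level of 1876, 2142 and 2742 TPM in young WT and 2109, 3255 and 3785 in old WT mice, and of 1657, 2063 and 2362 in young and 2691, 3034 and 3208 in old Col6a2-/- mice. The ages overlapped in WT and did not in Col6a2-/- mice. Its log2 difference was 0.53 (SE 0.102, limma adjusted p = 0.000443) in WT and 0.58 (SE 0.102, limma adjusted p = 7.95e-05) in Col6a2-/- mice. mt-Nd1 differed by 0.43 and 0.52 and mt-Nd2 by 0.51 and 0.58 on the same scale. mt-Nd4, mt-Nd4l, mt-Nd5 and mt-Nd6 were not called in either genotype, with log2 differences of 0.29, 0.26, 0.25 and -0.10 in WT. Without WT 25 weeks male replicate 4, mt-Nd4 (0.38, limma adjusted p = 0.0466) and mt-Nd5 (0.35, limma adjusted p = 0.0467) passed in WT.

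Complex IV and V mRNAs gave smaller differences than mt-Nd1, mt-Nd2 and mt-Nd3 in both genotypes. mt-Co2 rose in both genotypes, by 0.28 (limma adjusted p = 0.0346) and 0.32 (limma adjusted p = 0.00823). The WT call of mt-Co2 was lost in 10 of 32 fits that each left out 1 library: young WT female replicates 1, 3 and 4 and male replicates 3 and 4, and old WT female replicates 1 and 4 and male replicates 1, 2 and 3. This call was also lost without the filter on low values, and its limma adjusted p reached 0.102 over all alternatives. mt-Co1, mt-Co3, mt-Atp6 and mt-Atp8 rose in Col6a2-/- mice by 0.27, 0.37, 0.36 and 0.37. Of these, the call of mt-Co1 was lost in 11 of 32 fits that each left out 1 library: young Col6a2-/- female replicates 1, 2 and 3 and male replicates 1 and 3, and old Col6a2-/- female and male replicates 1, 2 and 3. It was also lost under quantile normalization, without the filter on low values and when scaled without mt- and Rn7s genes. The limma adjusted p of mt-Co1 reached 0.371 over all alternatives. The call of mt-Co3 was lost under quantile normalization, with an adjusted p of 0.361. In WT mice the same 4 genes differed by 0.18, 0.24, 0.26 and 0.30 without passing the test. Without WT 25 weeks male replicate 4, picked by its low mitochondrial share, they passed with 0.26, 0.31, 0.35 and 0.38 (limma adjusted p of 0.0335, 0.00555, 0.0149 and 0.0135). Whether the age effect differed between genotypes is given by the interaction, which called none of them. mt-Cytb was not called, with 0.19 in each genotype, though in WT it passed without WT 25 weeks male replicate 4 (0.28, limma adjusted p = 0.0364).

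**Figure D3:**
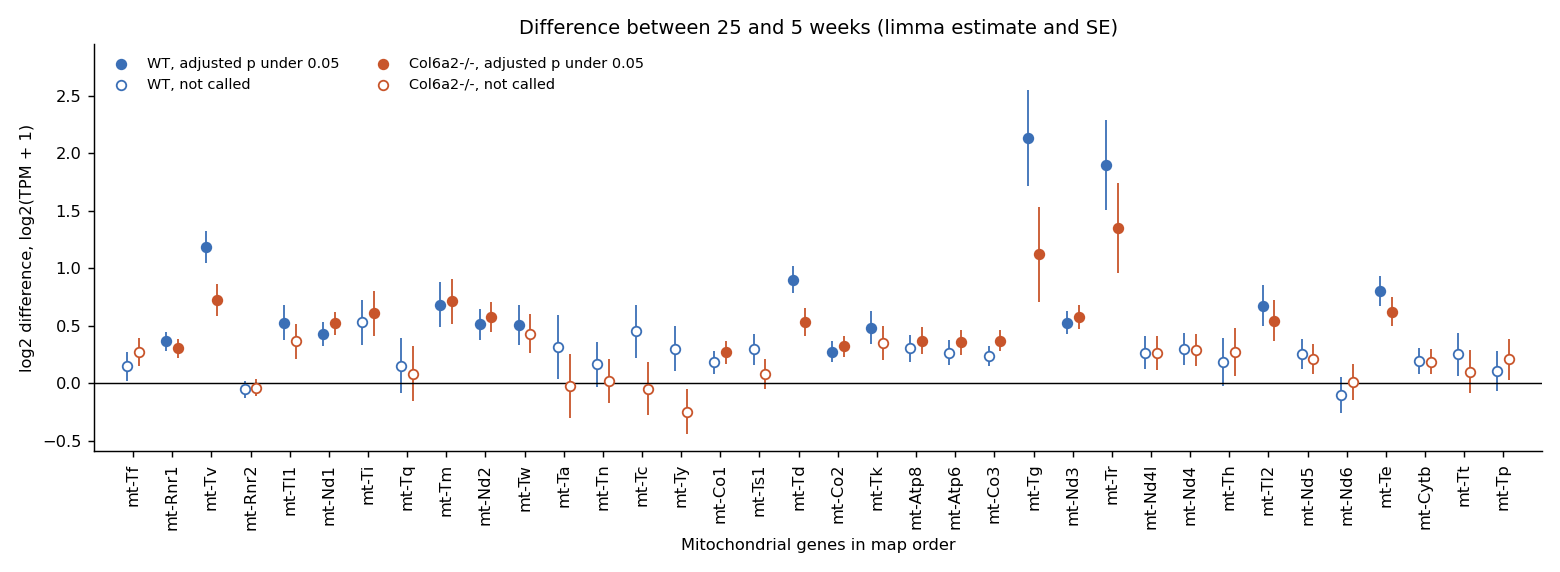
The horizontal axis lists the 36 tested members in map order, and the vertical axis shows the log2 difference of 25 against 5 weeks (limma estimate, bars ± SE) for WT and Col6a2-/- mice, filled where the adjusted p was under 0.05. Filled points are all above 0, mt-Rnr2 lies near 0, and mt-Tg and mt-Tr have both the highest points and the widest bars.

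Some markers of several cell types were also called lower with age. Over all genes tested, 19.8% were called in WT, with 4.47% higher, and 34.2% in Col6a2-/- mice, with 5.41% higher. The marker counts were not tested against these shares. Of 8 macrophage genes 1 fell in WT and 8 in Col6a2-/- mice, of 8 fibroblast genes 4 fell in each genotype, and of 7 Schwann cell genes 3 fell in WT and 7 in Col6a2-/- mice. Of 6 endothelium genes 2 fell in WT and 3 in Col6a2-/- mice, of 6 tenocyte genes 2 fell in each, and of 10 fibre genes 2 fell in each. Limma called 0 of 20 genes of the slow fibre, erythrocyte and adipocyte lists (0 at an unadjusted p under 0.05), whose median log2 differences with age were -0.06, 0.49 and 0.33 in WT and 0.60, 0.62 and 0.68 in Col6a2-/- mice. The median log2 difference of the fibre genes was -0.18 in WT and 0.02 in Col6a2-/- mice. The summed fibre list was 42134 ± 3578 TPM in young and 34255 ± 3429 in old WT mice, and 36074 ± 5159 and 30488 ± 2767 in Col6a2-/- mice (SD, n = 8 each). The part of these lists in the age results was not tested.

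To separate the makeup of the mitochondrial RNA from its amount, the fits were repeated on each gene's TPM as a share of the summed mitochondrial TPM. Of the 36 members, 19 rose and 1 fell with age in WT mice, where 2.60% of all genes rose and 14.4% were called in either direction. In Col6a2-/- mice 19 rose and 1 fell, where 3.10% rose and 27.1% were called. The member that fell was mt-Rnr2 in both, by 0.10 on the log2 scale. It held 74.2% ± 0.447 of mitochondrial TPM in young and 69.0% ± 1.42 in old WT mice, and 74.1% ± 0.777 and 69.0% ± 0.624 in Col6a2-/- mice (SD, n = 8 each), with no overlap between ages. Its call was lost in both genotypes in a fit without a trend of the variance. Because mt-Rnr2 is most of the denominator, a fall of its share raises the shares of the rest. With the 13 mRNAs as the denominator, 10 members rose and 2 fell (mt-Rnr2 and mt-Nd6) in WT, where 1.24% of all genes rose and 38.6% were called in either direction. In Col6a2-/- mice 8 rose and 4 fell (mt-Rnr2, mt-Nd6, mt-Cytb and mt-Ty), where 1.22% rose and 67.6% were called.

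The 21 tested tRNA rows ranged from a median of 364 TPM for mt-Tl1, a leucine tRNA, to 1.09 TPM for mt-Ts1, a serine tRNA. They lie next to far more abundant genes: coverage over mt-Tg was 10.1 to 175, and over mt-Co3 beside it 48109 to 129650. Whether reads on these rows came from mature tRNA, from uncut precursor or from a neighbour cannot be told apart. Whether strand was used is not stated in the sources used here, so RNA of either strand may count in them.

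The age calls among tRNA rows were mostly on the plus strand. Of 13 tested plus-strand rows, 9 rose in WT and 7 in Col6a2-/- mice, and of 8 minus-strand rows 1 rose in each, mt-Te (glutamate tRNA). Median levels were 1.09 to 8.98 TPM on the minus strand and 2.87 to 364 TPM on the plus strand. The ranges overlap: 6 plus-strand rows lay below 8.98 TPM, and 5 of these 6 rose in WT and 4 in Col6a2-/- mice. mt-Te rose by 0.80 (SE 0.129, limma adjusted p = 4.97e-05) in WT and 0.62 (SE 0.129, limma adjusted p = 0.000496) in Col6a2-/- mice. mt-Tm, the methionine tRNA, rose by 0.68 and 0.71, and mt-Tl2, a leucine tRNA, by 0.67 and 0.54. mt-Tl1, mt-Tk (lysine) and mt-Tw (tryptophan) rose in WT by 0.52, 0.48 and 0.50 and differed by 0.36, 0.35 and 0.43 in Col6a2-/- mice without passing the test. The call of mt-Tw in WT was lost without any 1 of 12 of the 16 WT libraries, and also without the filter on low values. mt-Ti (isoleucine) rose by 0.61 in Col6a2-/- mice and differed by 0.53 in WT without passing it, where it passed without WT 25 weeks male replicate 4 (0.72, limma adjusted p = 0.00176). In Col6a2-/- mice the call of mt-Ti was lost without young female replicate 2 (adjusted p = 0.0572), and that of mt-Tl2 without young male replicate 3, old female replicate 1 or old male replicate 2 (adjusted p up to 0.0597). The other 10 tested tRNA rows, mt-Tf, mt-Th and mt-Tt on the plus strand and mt-Tq, mt-Ta, mt-Tn, mt-Tc, mt-Ty, mt-Ts1 and mt-Tp on the minus strand, were called in neither genotype.

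mt-Tv was the member whose ages did not overlap in either genotype. Its lowest, median and highest levels were 11.8, 14.3 and 20.7 TPM in young WT, 23.2, 33.4 and 62.8 in old WT, 9.68, 13.9 and 18.2 in young Col6a2-/- and 20.0, 23.2 and 26.9 in old Col6a2-/- mice. Every old library was above every young one of its genotype. The log2 difference was 1.19 (SE 0.139, limma adjusted p = 4.19e-07) in WT and 0.72 (SE 0.139, limma adjusted p = 0.000226) in Col6a2-/- mice. mt-Td rose by 0.90 (SE 0.120, limma adjusted p = 3.25e-06) and 0.53 (SE 0.120, limma adjusted p = 0.00120).

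mt-Tg and mt-Tr, whose genes flank mt-Nd3, had the highest estimates of the members. The levels of mt-Tg fell into 2 sets with its widest gap between them. mt-Tg was at 1.54 to 4.73 TPM in 19 libraries and at 9.37 to 26.7 in the other 13, and the 13 libraries with the most mt-Tr, at 13.1 to 22.6 TPM against at most 7.63, were the same 13. The cut at 13 libraries was taken from mt-Tg: the widest relative gap of mt-Tr lay elsewhere, between 1 library at 1.04 TPM and the next at 2.10. The high set held 6 of 8 old WT, 5 of 8 old Col6a2-/-, 2 of 8 young Col6a2-/- and 0 of 8 young WT libraries. The low libraries at 25 weeks were WT male replicates 3 and 4 and Col6a2-/- female replicate 2 and male replicates 1 and 2, and the high ones at 5 weeks were Col6a2-/- female replicate 3 and male replicate 1. Old and young libraries overlapped in both genotypes for both rows.

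On the fitted scale mt-Tg differed between ages by 2.13 (SE 0.417, limma adjusted p = 0.000514) in WT and 1.12 (SE 0.417, limma adjusted p = 0.0383) in Col6a2-/- mice, and mt-Tr by 1.90 (SE 0.392, limma adjusted p = 0.000907) and 1.35 (SE 0.392, limma adjusted p = 0.00883). The call of mt-Tg in Col6a2-/- mice was lost in 10 of 32 fits that each left out 1 library: young Col6a2-/- female replicates 1 and 2 and male replicates 2, 3 and 4, and old Col6a2-/- female replicates 1, 3 and 4 and male replicates 3 and 4. It was also lost without the filter on low values, and its limma adjusted p reached 0.0894 over all alternatives. The labels give no extraction, library or run batch, so whether a batch follows these sets could not be looked at. The line was made on C57BL/6N and crossed to C57BL/6J, the tables hold no read sequences, and whether all mice carried the same mitochondrial sequence at these genes was not tested. The levels of mt-Tg and mt-Tr and their age differences are therefore given as listed, and a difference in RNA amount cannot be told apart from a difference in how reads matched the reference. The ratio of Gm28438 to mt-Nd3, which differ at the base shown above, moved with them. The 13 libraries with the lowest ratio, 100.437% to 100.931%, were the same 13, and the others lay at 101.015% to 101.772%. The cut at 13 libraries was again taken from mt-Tg, and the ratio had no wide gap there. The part of this pair in the split was not tested.

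**Figure D4:**
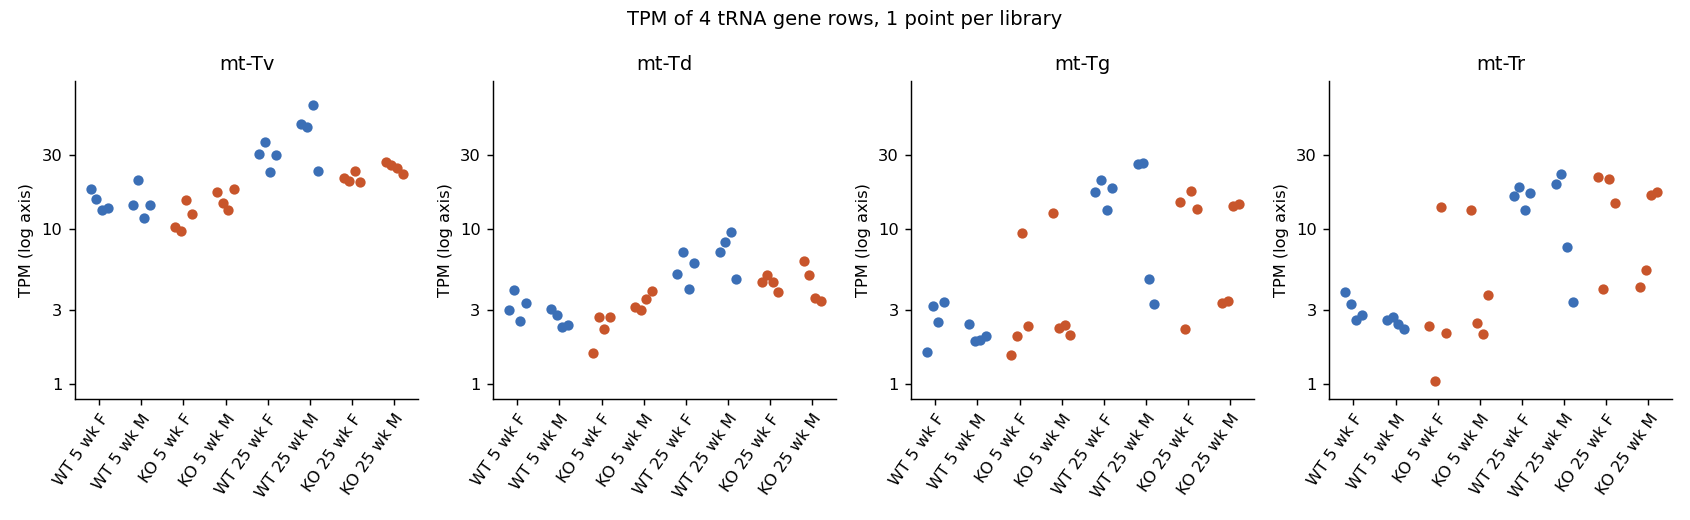
The vertical axes show the TPM (log axis) of mt-Tv, mt-Td, mt-Tg and mt-Tr in each library (points) of the 8 groups (KO, Col6a2-/-; wk, weeks; F, female; M, male). mt-Tv is higher in all old than in all young libraries of the same genotype, and mt-Tg and mt-Tr each have high and low libraries within several groups.

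The comparison of genotypes addresses what the absence of Col6a2 goes with in muscle. At 5 weeks none of the 36 members was called by limma, while 25.4% of all genes tested were. Of the members, 0 had an unadjusted p under 0.05, the lowest limma adjusted p was 0.236, for mt-Tl2, and quantile normalization called 1. mt-Rnr1 had a log2 difference of 0.09 (SE 0.0823), mt-Rnr2 0.02 (SE 0.0748), mt-Co1 0.01 (SE 0.101), mt-Nd1 -0.08 (SE 0.103), mt-Cytb 0.10 (SE 0.109) and mt-Atp6 -0.03 (SE 0.110). The median difference of the members was 0.03, beside 0.15 over all genes. As a share of the mitochondrial total, mt-Co3 alone fell in Col6a2-/- mice, by 0.14 on the log2 scale (SE 0.0442, limma adjusted p = 0.0361), where 9.79% of all genes were called. Its share was 2.85% ± 0.113 in WT and 2.59% ± 0.141 in Col6a2-/- mice (SD, n = 8 each), and the groups overlapped. Leaving out 1 library at a time lost this call in 9 of 32 fits: young WT female replicates 1 and 2 and male replicates 1, 2 and 3, and young Col6a2-/- female replicates 1 and 2 and male replicates 1 and 3.

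At 25 weeks 2 of 36 members fell in Col6a2-/- mice, mt-Tv and mt-Td, where 4.70% of all genes tested were called, so the share of members called, 5.56%, was near that of all genes. mt-Tv was at 37.4 ± 13.6 TPM in WT and 23.2 ± 2.54 in Col6a2-/- mice (SD, n = 8 each), and its values are given above with age. Each of the 8 Col6a2-/- libraries was below the WT mean of its sex, though the ranges overlapped between 23.2 and 26.9 TPM. The log2 difference was -0.60 (SE 0.139, limma adjusted p = 0.0123), and it stayed called in all 32 fits that each left out 1 library.

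mt-Td was at 4.12, 6.55 and 9.54 TPM (lowest, median, highest) in WT and 3.40, 4.56 and 6.19 in Col6a2-/- mice, again with overlap. Its log2 difference was -0.42 (SE 0.120, limma adjusted p = 0.0428), and the call was lost in 10 of 32 fits that each left out 1 library: old WT female replicates 2 and 4 and male replicates 1, 2 and 3, and old Col6a2-/- female replicates 1, 3 and 4 and male replicates 3 and 4. The mt-Td call was also lost without the filter on low values and when scaled without mt- and Rn7s genes. Its limma adjusted p reached 0.110 over all alternatives. As a share of the mitochondrial total the same 2 rows fell, mt-Tv by 0.65 and mt-Td by 0.49 on the log2 scale, where 0.975% of all genes were called. The mt-Td call on this scale was lost in 7 of 32 fits that each left out 1 library, with the adjusted p up to 0.0807: old WT female replicates 2 and 4 and male replicates 2 and 3, and old Col6a2-/- female replicate 1 and male replicates 3 and 4. On the share scale the mt-Tv values of the genotypes did not overlap.

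**Figure D5:**
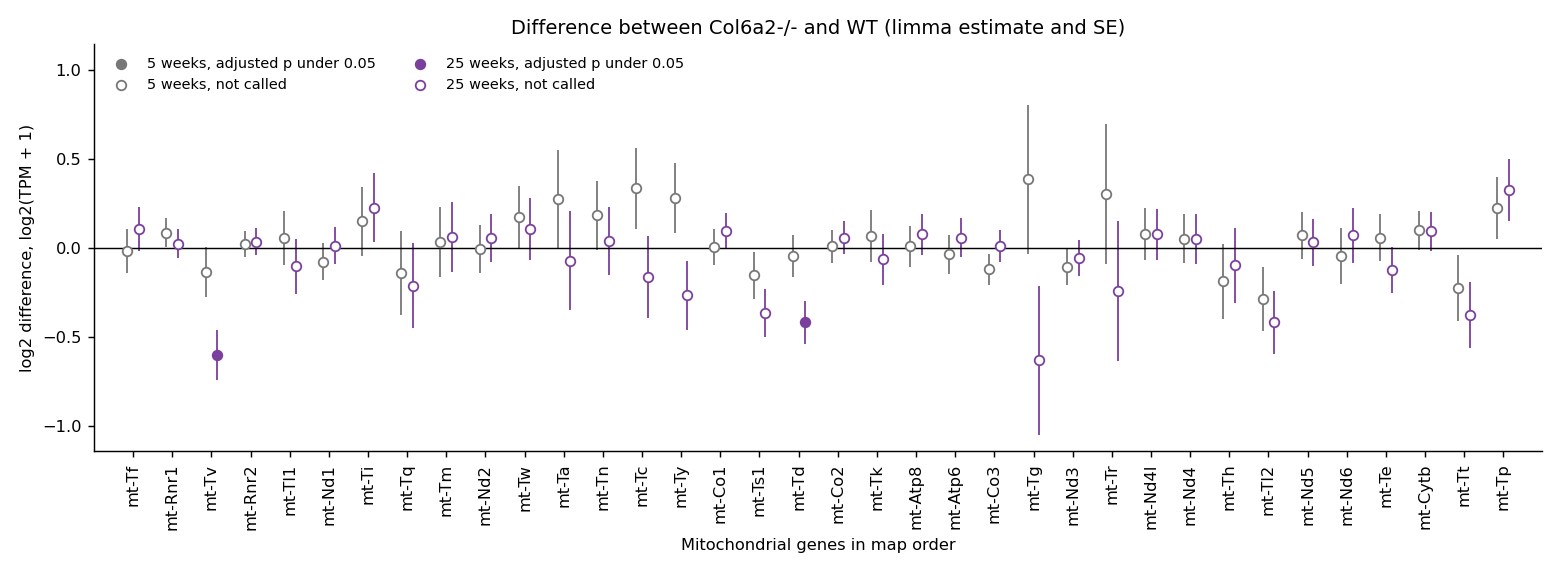
The horizontal axis lists the 36 tested members in map order, and the vertical axis shows the log2 difference of Col6a2-/- against WT mice (limma estimate, bars ± SE) at 5 and 25 weeks, filled where the adjusted p was under 0.05. The filled points are mt-Tv and mt-Td at 25 weeks, both below 0.

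The genotype effect was not shown to differ between ages. The interaction of genotype and age called 0 of 36 members by limma, where 0.492% of all genes were called. Of the members, 2 had an unadjusted p under 0.05, mt-Tv with -0.47 (limma adjusted p = 0.572) and mt-Td with -0.37 (limma adjusted p = 0.649). Sex called 0 members, where 3.05% of all genes were called and 2 members had an unadjusted p under 0.05. The lowest adjusted p was that of mt-Tv, at 25.3 ± 14.4 TPM in males and 19.6 ± 7.71 in females (SD, n = 16 each, limma adjusted p = 0.160). Without WT 25 weeks male replicate 4, mt-Tv was called higher in males, by 0.34 (limma adjusted p = 0.0116), where 3.15% of all genes were called. The interaction of genotype and sex called 0 members, where 0.0156% of all genes were called and 0 members had an unadjusted p under 0.05.

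Nuclear genes that act on these transcripts were read from lists of their own. At 5 weeks, 0 of 13 genes of mitochondrial transcription were called between genotypes. Among 22 genes of mitochondrial RNA processing and decay 1 rose in Col6a2-/- mice, Ptcd1 (a factor of leucine tRNA processing), by 0.19. Among 19 tRNA and rRNA modification genes 3 rose, among them Trit1 (a tRNA modification enzyme) by 0.48 and Pus1 (a pseudouridine synthase) by 0.33. Among 13 translation factors 4 rose, among them Mrrf (ribosome recycling) by 0.25 and Tufm (the elongation factor Tu) by 0.25, and among 12 genes of mitochondrial DNA maintenance 1 rose, Tk2 (a thymidine kinase), by 0.36. These shares are at or below the 25.4% of all genes given above, apart from the translation factors, and the lists were not tested as sets.

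Nuclear genes of the same respiratory complexes were mostly not called. At 5 weeks 0 of 16 complex I, 0 of 9 complex III and 0 of 14 complex V genes were called between genotypes, and of 10 complex IV genes 1 fell, Cox6a2 (the muscle form of a complex IV subunit), by 0.22. At 25 weeks limma called 0 of the 128 entries tested in the 9 nuclear lists between genotypes, and 7 had an unadjusted p under 0.05. With age in WT mice, where 19.8% of all genes were called, 1 complex I, 0 complex III, 1 complex IV and 2 complex V genes fell and 0 rose. In Col6a2-/- mice, where 34.2% were called, 0 complex I and 0 complex III genes were called, 1 complex IV gene rose and 0 fell, and 1 complex V gene rose and 1 fell. Of the lists that act on the transcripts, RNA processing had 4 of 22 genes lower and 0 higher with age in each genotype, and mitochondrial DNA maintenance had 2 of 12 higher and 0 lower in each. Transcription had 1 of 13 higher in WT, and 1 higher and 2 lower in Col6a2-/- mice. Modification had 0 of 19 called in WT, and 2 higher and 4 lower in Col6a2-/- mice, and the translation factors had 1 of 13 higher in WT, and 1 higher and 3 lower in Col6a2-/- mice. Beside the genotype results, 8 of 8 macrophage genes rose in Col6a2-/- mice at 5 weeks and 7 of 8 at 25 weeks. At each age 4 of 8 fibroblast genes rose. At 5 weeks 3 of 6 endothelium genes rose and 4 of 10 fibre genes fell, and at 25 weeks 0 of 6 and 0 of 10 were called. Of 6 tenocyte and 7 Schwann cell genes, 0 were called at either age. Over all genes tested, 25.4% were called at 5 weeks and 4.70% at 25 weeks. The slow fibre, erythrocyte and adipocyte lists had 0 of 20 genes called by limma at each age (0 and 3 at an unadjusted p under 0.05), with median log2 differences of 0.27, 0.01 and 0.41 at 5 weeks and 0.98, 0.18 and 0.68 at 25 weeks. The summed macrophage list ranged from 63.4 to 107 TPM in young WT and 102 to 349 in young Col6a2-/- mice, and from 42.6 to 116 and 112 to 208 at 25 weeks, and the part of these cell types in the results was not tested.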

How the data were processed

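Per the labels' protocols, RNA of quadriceps cryosections was made into TruSeq RNA libraries and sequenced in pairs, and per the submitters' processing notes FastQC, MultiQC, Trimmomatic, HISAT2, SAMtools and StringTie were used with build GRCm38. Versions, annotation, strand use and any poly(A) selection are not given in the sources used here. Each deposited table holds 1 library, with coverage, FPKM and TPM per gene computed by the authors, per the file headers. Coverage is the mean read depth over a gene, an unscaled signal, deposited by the authors. No read counts were used here, so count tests did not apply and no interval or detection limit was computed.

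TPM rows were summed per gene ID. Values were analysed as log2(TPM + 1), a pseudocount of 1 that understates changes of low genes, with limma 3.58.1 (lmFit, contrasts, eBayes with trend) in R 4.3.3, one mean per group over all 32 libraries and the sexes weighted equally. The 7 comparisons on TPM and 4 on shares of the mitochondrial total are two-sided, with Benjamini-Hochberg adjustment over all 12817 genes. The script was tested on simulated data. Python 3.11.15, numpy 2.4.6, pandas 2.3.3 and matplotlib 3.10.9 made the tables and plots, and the R package data.table (version 1.17.8) read them in R. Nuclear copies were found by shared runs of 50 bases in GENCODE M21 transcripts, and anticodons by a search for a loop of the tRNA's own anticodon on a paired stem.

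All members are accounted for: rRNAs and mRNAs are named with levels, and all tRNAs are named, with levels for some of them only. From each nuclear list, at most 2 genes with the smallest p per direction are named. The members and lists were chosen with earlier results of these data known. Replicate numbers were not treated as pairs of mice, and counts with a replicate block are given below. Same-number libraries of different groups had correlations of their deviations from -0.34 to 0.35 (median 0.03), and 35 of 112 were over 0.1. Libraries of different groups and different numbers had correlations from -0.41 to 0.34 (median -0.01), and 65 of 336 were over 0.1.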

Additional observations from a re-analysis of the deposited data

Results flagged for a closer look

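In 22 cases 1 library of a group of 4 lay apart from the other 3, by a test that flags about 1 in 20 groups by chance, among 232 groups tested. WT 25 weeks male replicate 4 had 32.01% of its TPM in mitochondrial genes (others 44.6% to 46.9%), 9970 TPM of mt-Co3 (others 14606 to 14981) and 257 TPM of mt-Tl1 (others 530 to 586).

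The rows mt-Tg and mt-Tr gave the most cases. Col6a2-/- 5 weeks female replicate 3 had 9.37 TPM of mt-Tg (others at most 2.36), 13.9 TPM of mt-Tr (others at most 2.35), mt-Tg at 0.0888% of mt-Co3 (others at most 0.0241%) and mt-Tr at 0.590% of mt-Nd3 (others at most 0.132%). Col6a2-/- 5 weeks male replicate 1 had 12.7 TPM of mt-Tg (others at most 2.38), 13.1 TPM of mt-Tr (others at most 3.74), mt-Tg at 0.144% of mt-Co3 and mt-Tr at 0.634% of mt-Nd3, and its mt-Co2 was at 5038 TPM (others 5607 to 5710). Col6a2-/- 25 weeks female replicate 2 had mt-Tg at 0.0160% of mt-Co3 (others 0.119% to 0.135%).

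The ratio of mt-Rnr2 to mt-Rnr1 was 6.18 in WT 5 weeks male replicate 4 (others 6.76 to 6.85) and 6.96 in Col6a2-/- 5 weeks male replicate 4 (others 6.21 to 6.33). WT 5 weeks male replicate 2 had mt-Nd6 at 0.323% of the mRNA TPM (others 0.263% to 0.273%) and mt-Tv at 0.0465% of mt-Rnr1 (others 0.0326% to 0.0341%). WT 5 weeks female replicate 1 had mt-Tv at 0.0436% of mt-Rnr1 (others 0.0327% to 0.0334%). mt-Rnr2 was at 312865 TPM in WT 5 weeks female replicate 2 (others 271194 to 277920), mt-Nd2 at 1696 in Col6a2-/- 25 weeks female replicate 4 (others 2654 to 2751), mt-Nd3 at 1925 in Col6a2-/- 5 weeks male replicate 3 (others 2056 to 2075), and mt-Nd4 at 903 in WT 5 weeks male replicate 3 (others 1111 to 1145).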

How the results depend on the processing

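Every member called for age on TPM was higher at 25 weeks under each scaling, pseudocount, filter and unit run, with 12 to 22 called in WT and 14 to 22 in Col6a2-/- mice. Genotype at 25 weeks called 1 member with no filter and 1 when scaled without mt- and Rn7s genes, against 3, all lower, under median-of-ratios scaling, scaling without the 100 most abundant genes and quantile normalization, and genotype at 5 weeks called 1 under quantile normalization. For the share of the mitochondrial total, genotype at 5 weeks called 0 with the 13 protein-coding genes as denominator and 0 with no trend, and age called 12 in WT and 12 in Col6a2-/- mice with that denominator. Of the share differences with age that were called against the mitochondrial total, that denominator reversed 5. These were mt-Atp6 to -0.0053 and mt-Co3 to -0.032 in WT, and mt-Rnr1 to -0.041, mt-Co1 to -0.075 and mt-Co2 to -0.022 in Col6a2-/- mice. None of these 5 was called there. However, mt-Cytb, not called against the mitochondrial total, was called lower with age in Col6a2-/- mice with that denominator. Its mean share of the mitochondrial total was 1.17% in young and 1.27% in old Col6a2-/- mice. The denominator of 13 protein-coding genes leaves out the rRNAs, whose ratio to the mRNAs differed between the ages.

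Leaving out 1 library at a time, the counts ranged from 0 to 0 (genotype at 5 weeks), 1 to 2 (genotype at 25 weeks), 13 to 23 (age in WT), 14 to 21 (age in Col6a2-/-), 0 to 1 (sex), and for shares 0 to 1 and 1 to 2 (genotype at 5 and 25 weeks), 18 to 21 (age in WT) and 16 to 20 (age in Col6a2-/-). The highest count of age in WT and the 1 of sex came without WT 25 weeks male replicate 4. With a replicate block, the counts were 0, 2, 0, 15, 18, 0 and 0 on TPM and 1, 2, 20 and 19 on shares; the mice share only a number. Adding the nuclear copies to their genes, chosen after seeing the data, gave 0, 2, 15 and 17 for genotype and age on TPM. Median-of-ratios scaling moved the median difference of all genes from 0.15 to 0.00 for genotype at 5 weeks and from -0.14 to 0.00 for age in Col6a2-/- mice. Read totals were not in the tables, so the precision of the low tRNA rows is known only from the spread between mice.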
